A study of Rattus norvegicus with 4 samples.

Results

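The antioxidant, glutathione and metallothionein genes are the enzymes and metal-binding proteins that remove superoxide, peroxides and electrophiles and buffer zinc and copper. Members were chosen by the gene symbol that the array's annotation gives to a probe set: glutathione transferases (Gst, Mgst), glutathione peroxidases (Gpx), peroxiredoxins and sulfiredoxin (Prdx, Srxn), superoxide dismutases (Sod) and catalase (Cat), thioredoxins and their relatives (Txn), glutaredoxins (Glrx), quinone and haem enzymes (Nqo, Hmox), metallothioneins (Mt), the glutathione enzymes Gclc, Gclm, Gss and Gsr, and the regulators Nfe2l2 and Keap1. The rule found 75 genes among 14217, carried by 87 probe sets, and of several probe sets for a gene the brightest, by its average over 4 arrays, stands for it. A further 3 probe sets that name a member together with another gene were left out. Symbols beginning with Txn also bring in proteins with a thioredoxin fold that are no antioxidants, among them the splicing factors Txnl4a and Txnl4b.

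The study placed titanium alloy implants where an upper molar had been extracted in male Sprague Dawley rats aged 4 weeks and took tissue 4 weeks later from 20 animals. Affymetrix rat arrays were hybridised with RNA from laser-microdissected peri-implant epithelium (2 arrays), the epithelial seal around an implant, and from junctional epithelium (2 arrays), the seal around a tooth. The labels give tooth extraction and implant placement as the treatment of all 4 samples, the junctional ones included. The sources used here do not say how many animals each array holds, so p-values measure the spread between these arrays, which may be technical.

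Superoxide dismutases turn superoxide into hydrogen peroxide, and catalase, glutathione peroxidases and peroxiredoxins then reduce the peroxide. Glutathione, made by glutamate-cysteine ligase (Gclc, Gclm) and glutathione synthetase (Gss), supplies electrons to the peroxidases and to glutaredoxins. The transferases join it to electrophiles. Many of these genes are targets of the transcription factor NRF2 (Nfe2l2), which KEAP1 holds back until electrophiles or oxidants modify it. Metallothioneins bind zinc and copper through cysteines and are induced by metals, glucocorticoids and inflammation, and in oral mucosa they are found in the basal epithelium.

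Signals are given on a log2 scale, on which a difference of 1 is 2-fold. With 2 arrays in each group, precision is limited by their number. Background was set at 6.42, the top signal reached by 27 probe sets for bacterial genes that were not spiked in, and between 66.1% and 68.9% of genes exceeded it on each array. Arrays correlated across genes, which are not independent replicates, with Pearson's r of 0.932 between the peri-implant arrays, 0.934 between the junctional arrays and 0.909 to 0.912 across the epithelia. All 12 measured epithelial markers (among them Krt5, Krt14 and Cdh1) exceeded background in both groups, while of 8 listed genes of junctional epithelium and the enamel organ only Ambn and Amelx were measured, and both lay below background on all 4 arrays. Among measured markers of other cells, 6 of 8 neutrophil genes were higher in peri-implant epithelium and 0 lower. Of 16 macrophage and dendritic cell genes, 6 were higher and 1 lower. All 9 measured fibroblast genes had a group mean above background, and 3 were higher, 1 lower and 5 did not pass. Their summed linear signal was 55039 to 55209 in peri-implant and 47402 to 47690 in junctional epithelium. The part of fibroblasts in the differences of members was not tested. Of 8 genes of keratinizing layers, 0 were higher and 6 lower. The shares of all genes were 7.39% higher and 5.34% lower.

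The promoters of the 3 metallothionein genes are shown because Mt1 and Mt2A both rose while Mt3, their neighbour, did not pass the test. The genes lie in a row on the minus strand of chromosome 19 in the rat assembly GRCr8, with Mt1 at chr19:10831959-10832975, Mt2A at chr19:10837934-10838708 and Mt3 at chr19:10854676-10856080. Each window runs from 250 bases before to 50 after the gene's start, is taken from RefSeq (GRCr8), and is written 5′ to 3′ on the gene's strand. Capitals mark the core of the metal response element, the site of the zinc sensor MTF1, searched as TGCACNC or TGCGCNC on both strands. The windows are chr19:10832926-10833225 for Mt1, chr19:10838659-10838958 for Mt2A and chr19:10856031-10856330 for Mt3.
Mt1: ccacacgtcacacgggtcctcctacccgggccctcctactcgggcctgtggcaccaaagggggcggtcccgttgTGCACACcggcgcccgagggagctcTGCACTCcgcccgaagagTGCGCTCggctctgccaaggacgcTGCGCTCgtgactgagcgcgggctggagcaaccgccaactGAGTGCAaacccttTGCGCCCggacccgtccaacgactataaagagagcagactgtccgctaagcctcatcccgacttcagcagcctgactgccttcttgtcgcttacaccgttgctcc
Mt2A: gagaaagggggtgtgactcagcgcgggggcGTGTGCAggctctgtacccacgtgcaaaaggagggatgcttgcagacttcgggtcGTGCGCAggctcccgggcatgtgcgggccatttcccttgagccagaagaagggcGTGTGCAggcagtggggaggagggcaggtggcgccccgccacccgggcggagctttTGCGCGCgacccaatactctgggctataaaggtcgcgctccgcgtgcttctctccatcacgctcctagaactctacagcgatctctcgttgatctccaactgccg
Mt3: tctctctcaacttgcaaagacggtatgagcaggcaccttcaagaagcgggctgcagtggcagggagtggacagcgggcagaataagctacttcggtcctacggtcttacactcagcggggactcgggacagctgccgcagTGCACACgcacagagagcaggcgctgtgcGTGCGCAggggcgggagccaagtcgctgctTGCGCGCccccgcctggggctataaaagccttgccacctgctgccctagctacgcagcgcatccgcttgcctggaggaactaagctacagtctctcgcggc

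The core occurs 6 times in the Mt1 window, 4 times in that of Mt2A and 3 times in that of Mt3, with no overlap among the matches or with the antioxidant element described next. Of 33469 rat promoter windows of the same length, 24.2% hold it at least once, 1.68% hold 3 or more and 0.439% hold 4 or more. Among all members, 64 genes had a window in the RefSeq table, and 21 of these held the metal response core, 4 of 13 that rose, 4 of 9 that fell and 13 of 42 that did not pass. It was in 28.8% of the 73 member windows, against 24.2% of all windows.

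The antioxidant response element is the site through which NRF2 acts, and its core was searched as TGACNNNGC on both strands. It was found in the windows of 21 of 64 member genes, and in 28.8% of the 73 member windows against 12.1% of all windows. By outcome, 7 of 13 genes that rose held it, 2 of 9 that fell and 12 of 42 that did not pass. Hmox1, which rose, and Gstt2, which fell, had no window and were searched for neither core. The Mt1 and Mt2A windows hold 1 match each and that of Mt3 holds 0. Sod2, which rose, and Gclm, which fell, also hold 1 match each, on the opposite strand, marked in capitals. The windows are chr1:50050119-50050418 on the minus strand for Sod2 and chr2:213031885-213032184 on the plus strand for Gclm.
Sod2: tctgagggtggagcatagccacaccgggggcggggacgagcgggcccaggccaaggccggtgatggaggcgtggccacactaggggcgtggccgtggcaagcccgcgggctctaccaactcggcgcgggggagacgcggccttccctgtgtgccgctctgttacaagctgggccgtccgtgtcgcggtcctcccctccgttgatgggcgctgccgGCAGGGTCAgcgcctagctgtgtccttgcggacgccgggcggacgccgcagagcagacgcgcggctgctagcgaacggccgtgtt
Gclm: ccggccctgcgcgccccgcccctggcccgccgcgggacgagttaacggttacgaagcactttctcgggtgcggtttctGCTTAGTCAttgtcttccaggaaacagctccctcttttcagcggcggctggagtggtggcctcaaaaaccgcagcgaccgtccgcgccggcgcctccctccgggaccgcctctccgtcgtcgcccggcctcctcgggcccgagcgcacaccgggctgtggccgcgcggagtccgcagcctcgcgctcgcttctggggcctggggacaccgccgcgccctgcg

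A match is a string of letters in these windows and no evidence of binding, and elements farther from the start were not searched.

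In peri-implant epithelium, mitochondrial superoxide dismutase, both broadly expressed metallothioneins, haem oxygenase 1 and several mu-class glutathione transferases were higher than in junctional epithelium. Catalase, glutathione peroxidase 1, glutaredoxin, the modifier subunit of glutamate-cysteine ligase and the transferases Gstt2, Gsto1, Gstp1 and Mgst3 were lower. Of the 75 members, 14 rose, 10 fell and 51 did not pass the test, which was limma with a variance prior that follows signal and Benjamini-Hochberg adjustment over all genes at 0.05. The same test called 12.7% of all genes, 7.39% as higher and 5.34% as lower. Counts from any class or list in the text are to be read beside these shares. The median difference, peri-implant minus junctional, was 0.06 over members and 0.05 over all genes.

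The variance prior matters for these counts. With limma's default prior, the same at every signal, 0 members passed (0.00% of all genes called), with a smallest adjusted p of 0.0938, while 24 members and 20.1% of all genes had an unadjusted p under 0.05. The prior that follows signal was chosen knowing this. With arrays centred on their median, 12 members rose and 11 fell, and calls over all genes were 765 higher and 1157 lower, against 1051 and 759 as deposited. With arrays scaled on their hybridization controls, 8 rose and 8 fell. Those controls averaged 14.03 on peri-implant replicate 1 and 13.70 to 13.76 on the other arrays, so this scaling shifts that array most. Of the 75 members, 66 had a group mean above background and 9 did not. The 9 were Sod3, Gpx6, Gsta3, Gstm3, Gstm6l, Gsto2, Gstp3, Txnrd2 and the pseudogene Hmox2-ps1.

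**Figure D1:**
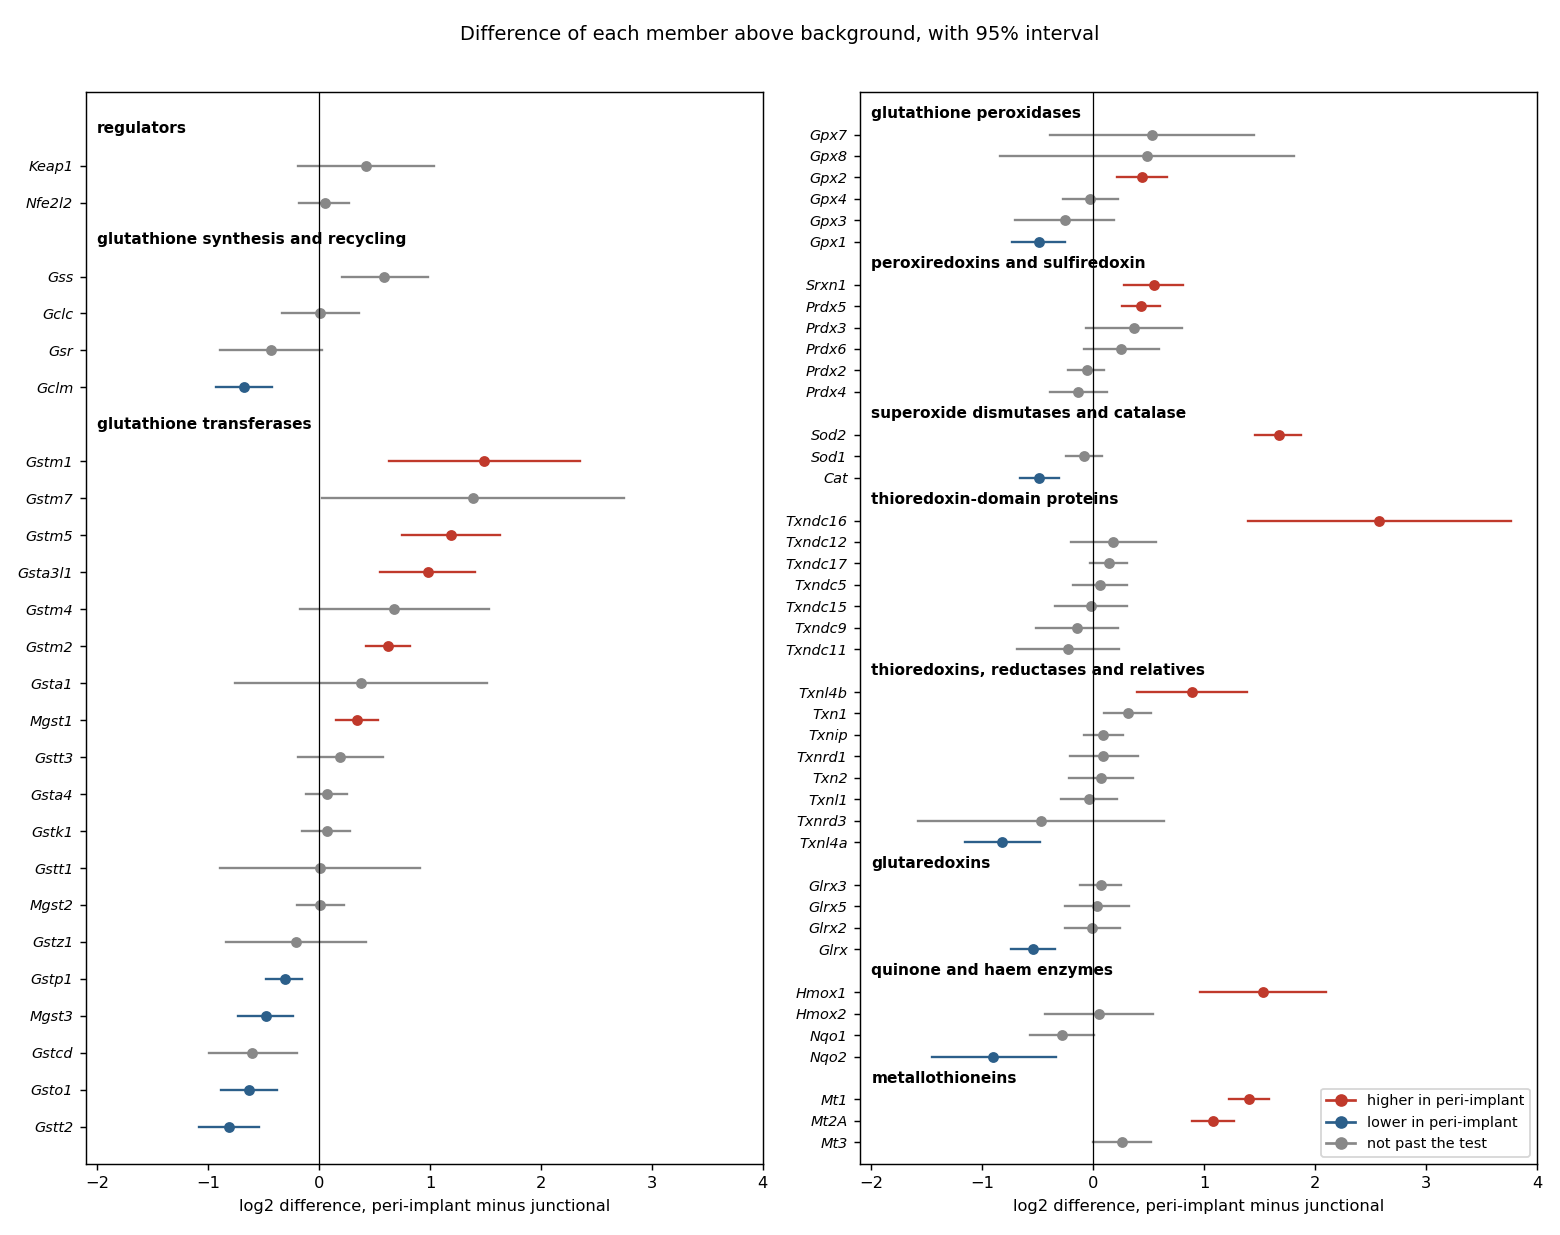
Log2 difference, peri-implant minus junctional, of the 66 members with a group mean above background, ordered by role, with limma's 95% interval. Red members were higher in peri-implant epithelium, blue were lower and grey did not pass the test; Sod2, Mt1 and Mt2A lie far from 0 with short intervals, while Txndc16 and Gstm1 have wide ones.

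Of the superoxide dismutases, the mitochondrial enzyme rose. Sod2, the manganese enzyme of mitochondria (chr1:50043323-50050168), had 12.78 and 12.63 in peri-implant epithelium, against 11.03 and 11.05 in junctional epithelium. Both peri-implant arrays stand far above both junctional arrays, and the difference of 1.67 (95% interval 1.46 to 1.87, 3.17-fold, adjusted p = 1.07e-05 in limma) is several times any gap within a group. Sod1, the copper and zinc enzyme of the cytosol, had 13.17 and 13.12 in peri-implant epithelium, against 13.24 and 13.21 in junctional epithelium, and did not pass (difference -0.08, interval -0.25 to 0.08). Sod3, the secreted enzyme, lay below background on all 4 arrays. The copper chaperone Ccs, which loads Sod1, is among the metal genes below.

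Catalase, the peroxisomal enzyme that splits hydrogen peroxide, moved the other way. Cat (chr3:110297340-110329526) had 12.20 and 12.15 in peri-implant epithelium, against 12.65 and 12.67 in junctional epithelium, groups that are apart, with gaps of 0.06 and 0.02 within them. It fell by 0.49 (interval -0.66 to -0.31, adjusted p = 0.00514 in limma). In bulk samples such as these, fewer cells of a type and less RNA per cell cannot be told apart. Red blood cells are rich in catalase, and of 6 measured red cell genes 1 (Slc4a1) was lower and 0 higher, while the summed linear signal of the 6 was 12324 to 12846 in peri-implant and 14867 to 15032 in junctional epithelium. Slc4a1, Epb42 and Gata1 lay below background on all 4 arrays, and Hbb, Alas2 and Ahsp above it. Hbb, which made most of the sum, had 13.60 and 13.54 in peri-implant epithelium, against 13.82 and 13.80 in junctional epithelium. It did not pass (difference -0.24, adjusted p = 0.0546 in limma). The part of red cells in the fall of Cat was not tested.

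**Figure D2:**
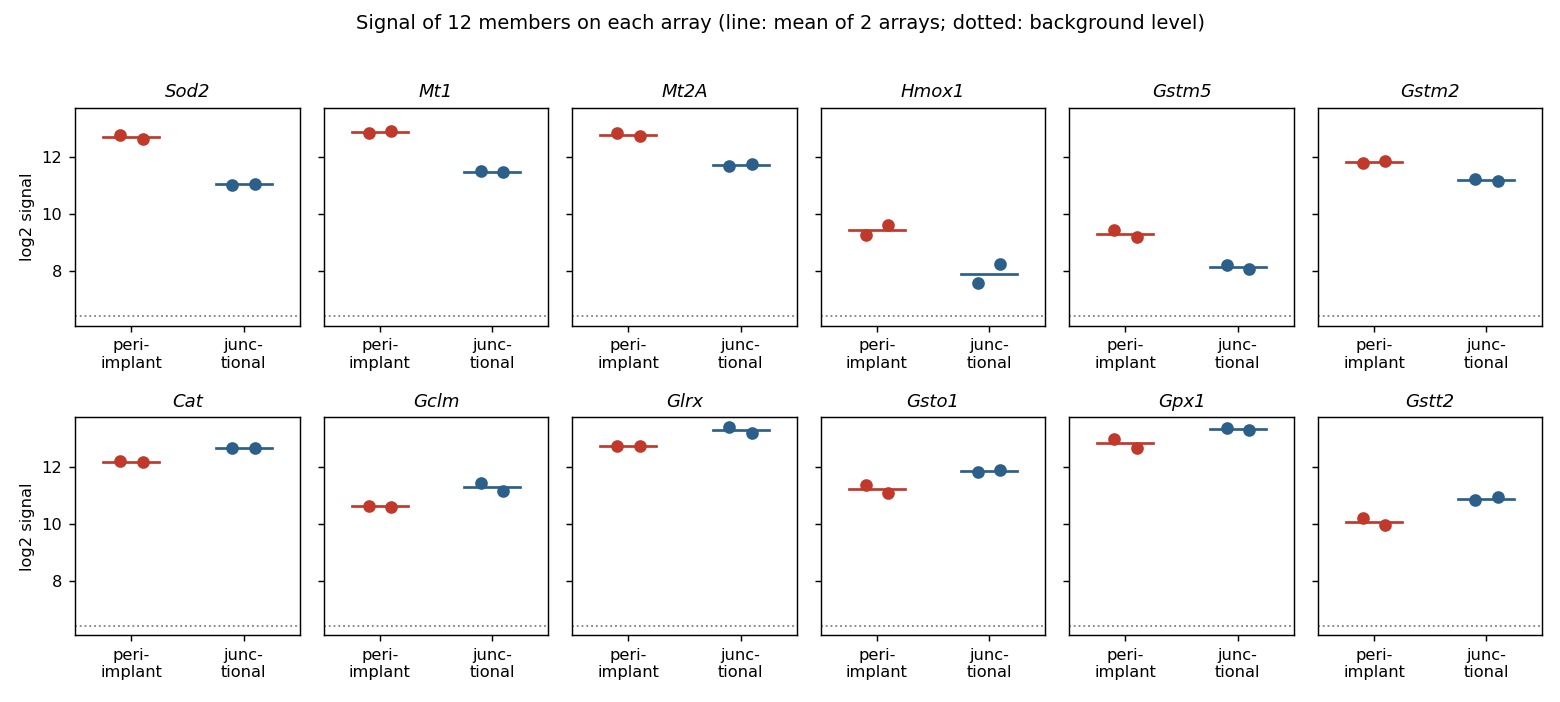
Log2 signal of 12 members on each array, peri-implant left of junctional in each panel, with points for arrays, a line for the mean of 2 arrays and a dotted line at the background level of 6.42. The upper row holds members that rose and the lower row members that fell, and in none of the panels do the groups overlap.

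Among the metallothioneins, Mt1 had 12.84 and 12.93 in peri-implant epithelium, against 11.50 and 11.48 in junctional epithelium. Mt2A had 12.85 and 12.73 in peri-implant epithelium, against 11.67 and 11.75 in junctional epithelium. In both genes the groups are well apart, and the differences of 1.40 (interval 1.22 to 1.58, 2.64-fold, adjusted p = 1.65e-05) and 1.08 (interval 0.89 to 1.27, 2.11-fold, adjusted p = 0.000148 in limma) are large beside gaps of at most 0.12 within a group. Mt3, a form best known from brain, had 10.48 and 10.66 in peri-implant epithelium, against 10.29 and 10.33 in junctional epithelium, and did not pass although the groups do not overlap (difference 0.26, interval -0.00 to 0.52, adjusted p = 0.176). Metallothionein messages are near-identical in places, and whether the Mt1 and Mt2A probe sets measure each other's transcripts cannot be settled from the signals.

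Sod2, Mt1 and Mt2A were the members that passed with each of the 4 arrays left out in turn. Without 1 array, their adjusted p was at most 0.0127 for Sod2, 0.0134 for Mt1 and 0.0267 for Mt2A, and the differences ran from 1.59 to 1.74, from 1.35 to 1.45 and from 1.02 to 1.14. The summed linear signal of the neutrophil list was 90445 to 103769 in peri-implant and 38427 to 38742 in junctional epithelium, and that of the macrophage and dendritic cell list 29368 to 31614 in peri-implant and 18597 to 19697 in junctional epithelium. Most of the neutrophil sum came from S100a8 and S100a9, which squamous epithelium also makes. Without them, the other 6 genes summed to 3699 to 3710 in peri-implant and 1466 to 1478 in junctional epithelium. Most of the macrophage and dendritic cell sum came from Lyz2 and Cd74. In that list 6 genes rose, 1 (Mrc1) fell and 9 did not pass, Cd68 among them. Of the neutrophil genes, Mmp8 and Camp were below background on all 4 arrays, and of the macrophage genes Cd163 and Itgam were. Their part in the rise of Sod2, the metallothioneins and Hmox1 was not tested.

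Of the genes that handle metals around metallothionein, from a list outside the members, 4 of 23 rose, 1 fell and 18 did not pass. The shares of all genes were 7.39% higher and 5.34% lower. Ccs rose by 1.03, the copper importer Slc31a1 by 0.64, the copper exporter Atp7a by 0.49 and the importer's relative Slc31a2 by 0.40. Probe sets disagreed in sign for Slc31a1, whose 3 others gave -0.38, -0.23 and 0.29, and for Slc31a2, whose other one gave -0.46. For Atp7a, another probe set above background on all 4 arrays gave 0.04 (adjusted p = 0.898 over all probe sets in limma). Its remaining probe set, above background on 2 arrays, gave 0.53. The other copper genes of the list did not pass: the chaperone Atox1 differed by 0.22, ceruloplasmin (Cp) by -0.09, and Atp7b lay below background. The zinc transporter Slc30a4 fell by 0.48. Mtf1, which encodes the metal sensor itself, had 8.38 and 7.84 in peri-implant epithelium, against 7.86 and 7.80 in junctional epithelium, and did not pass (adjusted p = 0.544), nor did the zinc exporter Slc30a1, an MTF1 target (difference 0.53, adjusted p = 0.225).

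Haem oxygenase 1 (Hmox1), an inducible enzyme that breaks down haem and is a target of NRF2, had 9.25 and 9.61 in peri-implant epithelium, against 7.58 and 8.23 in junctional epithelium. The groups do not overlap, although the junctional arrays are 0.65 apart, and Hmox1 rose by 1.53 (interval 0.96 to 2.10, 2.89-fold, adjusted p = 0.00619 in limma). With 1 array left out it passed without junctional replicate 2 (adjusted p = 0.0414) and not without the others (adjusted p from 0.0603 to 0.1). Hmox2, the constitutive form, had 8.87 and 8.55 in peri-implant epithelium, against 8.46 and 8.85 in junctional epithelium, fully overlapping.

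Of the quinone reductases, 1 fell and 1 did not pass. Nqo1, a much used NRF2 target gene, had 10.40 and 10.19 in peri-implant epithelium, against 10.47 and 10.67 in junctional epithelium, with a difference of -0.28 that did not pass (interval -0.57 to 0.01, adjusted p = 0.187). Nqo2 had 8.05 and 7.60 in peri-implant epithelium, against 8.88 and 8.57 in junctional epithelium, and fell by 0.90 (adjusted p = 0.0444), a call lost with signals raised to the background level, when all probe sets were tested, and without any 1 of the 4 arrays (adjusted p from 0.0913 to 0.269).

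Neither regulator of the pathway passed the test. Nfe2l2 had 11.04 and 11.15 in peri-implant epithelium, against 11.00 and 11.10 in junctional epithelium, a difference of 0.05 with overlapping groups (interval -0.18 to 0.27). Keap1 had 7.78 and 8.28 in peri-implant epithelium, against 7.64 and 7.57 in junctional epithelium, and did not pass (difference 0.42, interval -0.19 to 1.04); its other probe set showed a difference of -0.00. NRF2 is controlled mainly through the stability of the protein, which arrays do not measure. Of 9 other measured regulators, Maff, a small MAF partner of NRF2, rose by 0.96 (adjusted p = 0.0186), while Bach1, a repressor that competes with NRF2 at its sites, fell by 0.65 (adjusted p = 0.0236) and Btrc, of a ubiquitin ligase, fell by 0.60 (adjusted p = 0.0429 in limma), with 0.13 on another probe set near background; the other 6 did not pass.

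Among 22 measured NRF2 target genes that are no members, 4 fell, 0 rose and 18 stayed short of the threshold, with a median difference of -0.17. Of all genes, 5.34% fell and 7.39% rose. Slc7a11, the cystine importer that feeds glutathione synthesis, had 12.97 and 12.86 in peri-implant epithelium, against 13.32 and 13.25 in junctional epithelium, and fell by 0.37 (adjusted p = 0.0184 in limma). Abcc1, an exporter of glutathione conjugates, fell by 0.30. Sqstm1, an autophagy receptor that binds KEAP1, fell by 0.59 on its brightest probe set, but a second one above background gave 0.58 (adjusted p = 0.139 over all probe sets in limma), so its probe sets disagree. Ces1d, a carboxylesterase, was at least 2.03-fold lower, with both peri-implant arrays below background. Some genes known as NRF2 targets serve as examples and are no full list. Hmox1 and Srxn1 rose, Srxn1 with a second probe set above background at -0.09. Gclm, Slc7a11 and Abcc1 fell, and Nqo1, Gclc and Txnrd1 did not pass on their brightest probe sets. Glutathione transferases and peroxidases were not sorted by whether NRF2 targets them. Of the transferases 5 rose and 4 fell, and of the peroxidases 1 rose and 1 fell. The part of NRF2 in these differences was not tested.

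Of the genes of glutathione synthesis, 1 fell. Gclm, the subunit that raises the efficiency of glutamate-cysteine ligase (chr2:213032135-213052192), had 10.63 and 10.60 in peri-implant epithelium, against 11.42 and 11.16 in junctional epithelium. The peri-implant arrays lie 0.03 apart and below both junctional arrays, and Gclm fell by 0.68 (interval -0.93 to -0.42, adjusted p = 0.00648 in limma). Gclc, the catalytic subunit, had 9.87 and 9.55 in peri-implant epithelium, against 9.70 and 9.69 in junctional epithelium, a difference of 0.01 (interval -0.33 to 0.36), and its other probe set gave -0.27. Gss, which adds the last residue, had 9.23 and 9.35 in peri-implant epithelium, against 8.78 and 8.61 in junctional epithelium, and narrowly missed the threshold (difference 0.59, adjusted p = 0.0532); it passed in 4 alternatives, with adjusted p from 0.0331 to 0.0485. Gsr, the reductase that recycles oxidised glutathione, had 8.51 and 8.72 in peri-implant epithelium, against 9.25 and 8.84 in junctional epithelium, and did not pass (difference -0.43, interval -0.89 to 0.03).

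Around the members, 4 of 16 genes of glutathione transport and turnover rose and 2 fell, against 7.39% and 5.34% of all genes. Anpep, an aminopeptidase of the cell surface, had 9.06 and 8.47 in peri-implant epithelium, against 6.70 and 6.69 in junctional epithelium, a rise of 2.07 (adjusted p = 0.0028 in limma). Ggt1, the gamma-glutamyl transferase that opens extracellular glutathione, rose by 0.36, and Esd and Hagh, hydrolases of glutathione thioesters, rose by 0.94 and 0.85. Glo1, the glyoxalase whose product Hagh splits, fell by 0.45 (adjusted p = 0.00753 in limma). Anpep is also carried by myeloid cells, whose marker sums are given above, and their part in its rise was not tested. Of 9 genes that supply NADPH, Pgls and Taldo1 of the pentose phosphate pathway rose, by 0.92 and 0.44, 0 fell and 7 did not pass.

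The glutathione transferases conjugate electrophiles and fall into classes by sequence. Of 24 members, 5 rose, 4 fell and 15 did not pass, and 5 lay below background in both groups. In the mu class, whose 7 measured genes all lie on chromosome 2, 3 rose, 0 fell and 4 did not pass. Gstm2 (chr2:198312179-198316962) had 11.79 and 11.85 in peri-implant epithelium, against 11.23 and 11.17 in junctional epithelium, a rise of 0.62 (interval 0.42 to 0.82, adjusted p = 0.00289 in limma) that did not pass with arrays scaled on hybridization controls (0.48).

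Gstm5 (chr2:198219769-198222732) had 9.44 and 9.18 in peri-implant epithelium, against 8.20 and 8.05 in junctional epithelium, a rise of 1.19 (interval 0.75 to 1.63, adjusted p = 0.00566 in limma). Gstm1 (chr2:198338005-198346007) had 8.04 and 7.52 in peri-implant epithelium, against 5.99 and 6.58 in junctional epithelium. With 1 junctional array below background, it was at least 2.43-fold higher (adjusted p = 0.0348 in limma), a call lost under quantile normalization and without any 1 of the 4 arrays (adjusted p from 0.1 to 0.232).

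Gstm7 had 6.59 and 7.20 in peri-implant epithelium, against 4.80 and 6.22 in junctional epithelium, both below background there, and Gstm4 had 7.62 and 6.96 in peri-implant epithelium, against 6.59 and 6.63 in junctional epithelium; neither passed (adjusted p = 0.168 and 0.276 in limma). Gstm3 and Gstm6l were below background. Of the 7 mu genes, 5 had both peri-implant arrays above both junctional arrays, an order that 31.2% of all genes showed, and 0 had the opposite order. Mu-class genes resemble each other closely, so these probe sets may share transcripts and are not independent measurements.

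Outside the mu class, Gsta3l1, of the alpha class, had 9.36 and 9.26 in peri-implant epithelium, against 8.18 and 8.47 in junctional epithelium, a rise of 0.98 (adjusted p = 0.0122 in limma). The other alpha gene with a strong signal, Gsta4, known for conjugating lipid peroxidation products, had 12.22 and 12.17 in peri-implant epithelium, against 12.07 and 12.18 in junctional epithelium, with overlapping groups (difference 0.07, interval -0.12 to 0.25). Mgst1, a membrane-bound transferase with peroxidase activity, had 11.89 and 11.96 in peri-implant epithelium, against 11.59 and 11.57 in junctional epithelium, a rise of 0.34 (adjusted p = 0.03 in limma) that did not pass with arrays centred on their median (0.24) or scaled on hybridization controls (0.21). Mgst2 had 13.16 and 12.93 in peri-implant epithelium, against 12.97 and 13.10 in junctional epithelium, a difference of 0.01 (interval -0.20 to 0.23).

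The 4 transferases that fell were Gstt2, Gsto1, Gstp1 and Mgst3, the last of the same microsomal class as Mgst1, which rose. Gstt2, of the theta class, had 10.18 and 9.96 in peri-implant epithelium, against 10.83 and 10.92 in junctional epithelium, and fell by 0.81 (interval -1.08 to -0.54, adjusted p = 0.00389 in limma), a call lost when its 2 probe sets were averaged (-0.76). Gsto1, an omega transferase that reduces dehydroascorbate, had 11.36 and 11.06 in peri-implant epithelium, against 11.82 and 11.88 in junctional epithelium, and fell by 0.63 (adjusted p = 0.00819 in limma). Both groups of arrays are apart in each.

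Gstp1, the pi transferase typical of squamous epithelium, had 13.22 and 13.18 in peri-implant epithelium, against 13.53 and 13.50 in junctional epithelium, a small but tight fall of 0.31 (interval -0.48 to -0.15, adjusted p = 0.0236 in limma). Mgst3 had 10.39 and 10.59 in peri-implant epithelium, against 10.96 and 10.99 in junctional epithelium, and fell by 0.48 (adjusted p = 0.0245 in limma). Neither passed with arrays scaled on hybridization controls, where the differences were -0.45 and -0.62. Gstcd, a protein with a transferase-like domain, had a difference of -0.60 and an adjusted p = 0.0563, and passed in 6 alternatives. Gstk1, Gstz1, Gstt1 and Gstt3 had overlapping groups. The list of keratinizing layer genes, of which 6 of 8 were lower, had summed linear signals of 20402 to 21186 in peri-implant and 41527 to 43869 in junctional epithelium. Its part in the falls of Gstp1 and Gsto1 was not tested.

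Among the glutathione peroxidases, Gpx1, the general cytosolic enzyme, had 12.98 and 12.67 in peri-implant epithelium, against 13.35 and 13.29 in junctional epithelium, and fell by 0.49 (interval -0.73 to -0.26, adjusted p = 0.0175 in limma). Gpx2, the form of gut and other epithelia, had 12.27 and 12.06 in peri-implant epithelium, against 11.67 and 11.79 in junctional epithelium, and rose by 0.44 (interval 0.21 to 0.66, adjusted p = 0.0227 in limma). The 2 enzymes reduce the same kinds of peroxide, and their messages moved in opposite directions on the same arrays. The rise of Gpx2 did not pass with arrays centred on their median (0.33) or scaled on hybridization controls (0.30).

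Gpx4, which reduces lipid hydroperoxides in membranes, had 10.77 and 10.62 in peri-implant epithelium, against 10.76 and 10.69 in junctional epithelium, and did not pass (difference -0.03, interval -0.27 to 0.22). Gpx3, Gpx7 and Gpx8 did not pass, with differences of -0.26, 0.53 and 0.48. Gpx1 to Gpx4 are selenoproteins. Of 23 genes for selenoprotein synthesis, other selenoproteins and related repair enzymes 2 rose, 3 fell and 18 did not pass. The shares of all genes were 7.39% higher and 5.34% lower. Secisbp2, which decodes selenocysteine, Selenow and the selenium carrier Selenop fell by 0.73, 0.59 and 0.46. Sesn2, a stress-induced sestrin, rose by 1.20, and Pon3, a lactonase, was at least 7.29-fold higher, at 9.32 and 9.27 in peri-implant epithelium, against 6.34 and 6.44 in junctional epithelium (adjusted p = 0.000199 in limma).

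The peroxiredoxins reduce hydrogen peroxide at low levels through a reactive cysteine, and sulfiredoxin restores them when that cysteine is over-oxidised. Prdx5, found in mitochondria, peroxisomes and cytosol, had 12.95 and 12.88 in peri-implant epithelium, against 12.48 and 12.49 in junctional epithelium, and rose by 0.43 (interval 0.26 to 0.60, adjusted p = 0.00788 in limma). Srxn1, the sulfiredoxin, had 11.20 and 10.99 in peri-implant epithelium, against 10.63 and 10.47 in junctional epithelium, and rose by 0.55 (adjusted p = 0.0186 in limma). For Srxn1 the second probe set gave -0.09 and the other lay below background, and the call was lost when the 3 were averaged. Prdx2 had 13.29 and 13.22 in peri-implant epithelium, against 13.30 and 13.32 in junctional epithelium, a difference of -0.06 (interval -0.23 to 0.10). Prdx3, Prdx4 and Prdx6 did not pass, with differences of 0.37, -0.14 and 0.25. Neither rise passed with arrays scaled on hybridization controls, where the differences were 0.29 for Prdx5 and 0.41 for Srxn1.

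In the thioredoxin system neither thioredoxin nor its reductases passed on their brightest probe sets. Txn1, the cytosolic thioredoxin, had 16.10 and 15.81 in peri-implant epithelium, against 15.70 and 15.60 in junctional epithelium, and did not pass (difference 0.31, interval 0.10 to 0.52, adjusted p = 0.062). It passed with the replicate number as a block (adjusted p = 0.0109), when genes below background on more than 2 arrays were left out (adjusted p = 0.0463) and without peri-implant replicate 2 (difference 0.45, adjusted p = 0.0257). Txnip, which binds thioredoxin, had 12.64 and 12.58 in peri-implant epithelium, against 12.54 and 12.49 in junctional epithelium, a difference of 0.09 (interval -0.08 to 0.27). Txnrd1, the cytosolic reductase, differed by 0.09 on its brighter probe set and by 1.69 on the other (8.76 and 8.16 in peri-implant epithelium, against 6.14 and 7.40 in junctional epithelium, adjusted p = 0.0346 over all probe sets), so the probe sets disagree.

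Both splicing proteins of the Txn symbols moved, in opposite directions. Txnl4b had 8.71 and 8.72 in peri-implant epithelium, against 7.69 and 7.96 in junctional epithelium, and rose by 0.89 (adjusted p = 0.0308 in limma), a call lost with arrays scaled on hybridization controls. Txnl4a had 8.96 and 9.16 in peri-implant epithelium, against 9.89 and 9.88 in junctional epithelium, and fell by 0.82 (adjusted p = 0.00923 in limma). Of 7 thioredoxin-domain proteins named Txndc, Txndc16 passed the test. It had 7.45 and 7.54 in peri-implant epithelium and was below background on both junctional arrays (4.45 and 5.38), at least 2.10-fold higher (adjusted p = 0.0153 in limma); of the fits with 1 array left out, it passed in the one without junctional replicate 2 (adjusted p = 0.0488). The fitted difference of 2.57 became 1.07 when signals were raised to the background level. Txndc17, a cytosolic relative of thioredoxin, had 13.67 and 13.76 in peri-implant epithelium, against 13.61 and 13.55 in junctional epithelium (difference 0.14, interval -0.03 to 0.30). Txndc5, a disulfide isomerase of the endoplasmic reticulum, had 10.65 and 10.72 in peri-implant epithelium, against 10.58 and 10.67 in junctional epithelium (difference 0.06, interval -0.18 to 0.30).

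Among the glutaredoxins, which use glutathione to reduce protein disulfides, Glrx had 12.74 and 12.73 in peri-implant epithelium, against 13.38 and 13.18 in junctional epithelium, and fell by 0.54 (interval -0.74 to -0.35, adjusted p = 0.00537 in limma). Its other probe set, with 12.14 and 12.10 in peri-implant epithelium, against 12.63 and 12.61 in junctional epithelium, showed a fall of 0.50 (adjusted p = 0.00496 over all probe sets). Glrx3 and Glrx5, which serve iron-sulfur proteins, and Glrx2, of mitochondria, had overlapping groups and differences from -0.01 to 0.07 on their brighter probe sets.

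**Figure D3:**
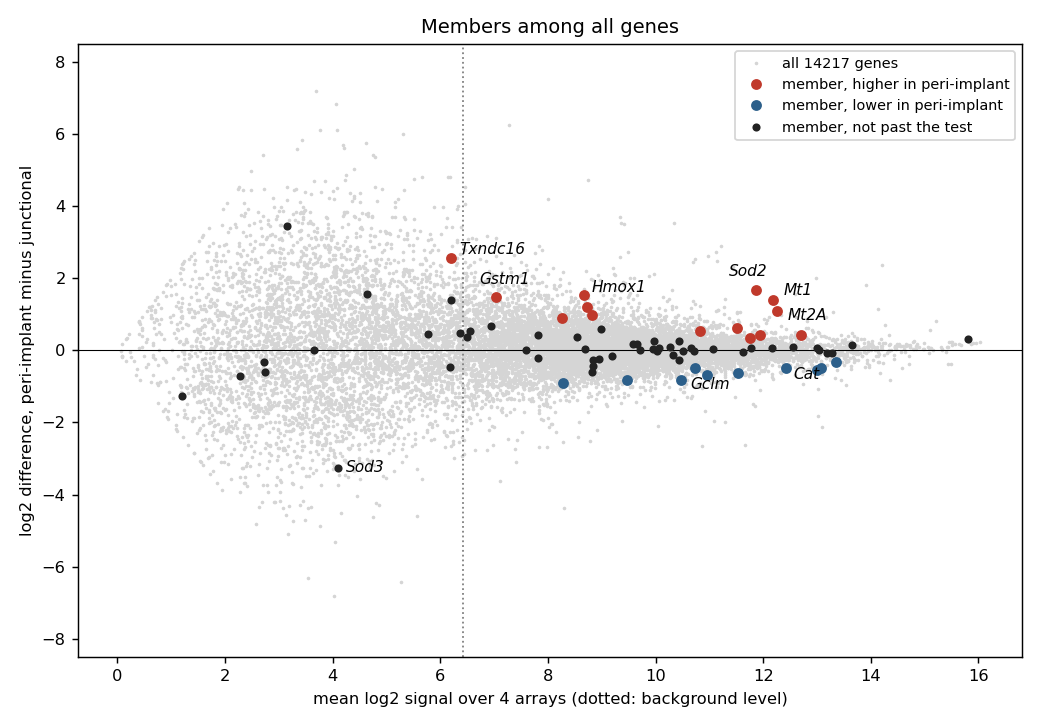
Log2 difference, peri-implant minus junctional, against the mean log2 signal over 4 arrays for all 14217 genes (grey) and the 75 members (red higher, blue lower, black not past the test). Sod2, Mt1 and Mt2A stand out where the spread of all genes is narrow, while Sod3 and other members below the dotted background level of 6.42 lie within a wide spread.

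Another list outside the members held oxidases that make superoxide and peroxide, their subunits and partners, and related enzymes. Of its 15 measured genes, 7 rose and 0 fell, while 8 did not pass. The median difference was 0.75, and 7.39% of all genes rose. Among those that did not pass were the NADPH oxidases Cybb and Nox1 (adjusted p = 0.0788 and 0.159 in limma) and Nox4, below background. Nos2 and Aox1, which did not pass either, had differences of -0.47 and -0.95, Aox1 below background. Noxo1, an organiser of the NADPH oxidase NOX1, had 10.18 and 10.47 in peri-implant epithelium, against 8.48 and 8.52 in junctional epithelium, a rise of 1.83 (adjusted p = 0.000238 in limma). Duox2, a peroxide-producing oxidase of mucosal surfaces, was at least 2.70-fold higher, and Rac2 and Ncf4, parts of the phagocyte oxidase, were at least 3.71-fold higher and higher by 0.97. Cyba, a membrane subunit that several of these oxidases share, rose by 0.52, and its other probe set, above background on 1 array, gave -0.35. Rac2 and Ncf4 are genes of leukocytes, and the part of the neutrophils and macrophages whose marker sums are given above was not tested. Xdh, whose enzyme also releases peroxide, rose by 0.29, and Sat1, which encodes no oxidase, rose by 0.75.

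The difference exceeded the larger gap within a group in 39 of 75 members (52.0%), against 43.4% of all genes. It did so in all 24 that passed, but the test that chose them weighs the difference against the spread of these same arrays. In 27 members both peri-implant arrays exceeded both junctional arrays, and in 18 both were lower, against 31.2% and 25.2% of all genes, or 56.3% in either direction. Among features above background on all 4 arrays, the median size of the difference was 0.28 over 59 members and 0.27 over all genes.

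With 1 array left out, which leaves 1 residual degree of freedom and assumes that the lone array varies like the other group, 8 of the 24 still passed without peri-implant replicate 1, 3 without peri-implant replicate 2, 3 without junctional replicate 1 and 7 without junctional replicate 2. Cat, Gstm2, Gsto1, Gstt2 and Gpx1 passed without peri-implant replicate 1 (adjusted p from 0.0195 to 0.0398) and not without any of the others (adjusted p from 0.0544 to 0.192). Gclm and Glrx passed without junctional replicate 2 alone (adjusted p = 0.0474 and 0.0497). Gstm5, Gsta3l1, Gpx2, Prdx5, Srxn1, Gstp1, Mgst1, Mgst3, Gstm1, Nqo2, Txnl4a and Txnl4b did not pass without any 1 of the 4. No member that passed turned its sign under any of the 14 alternatives.

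**Figure D4:**
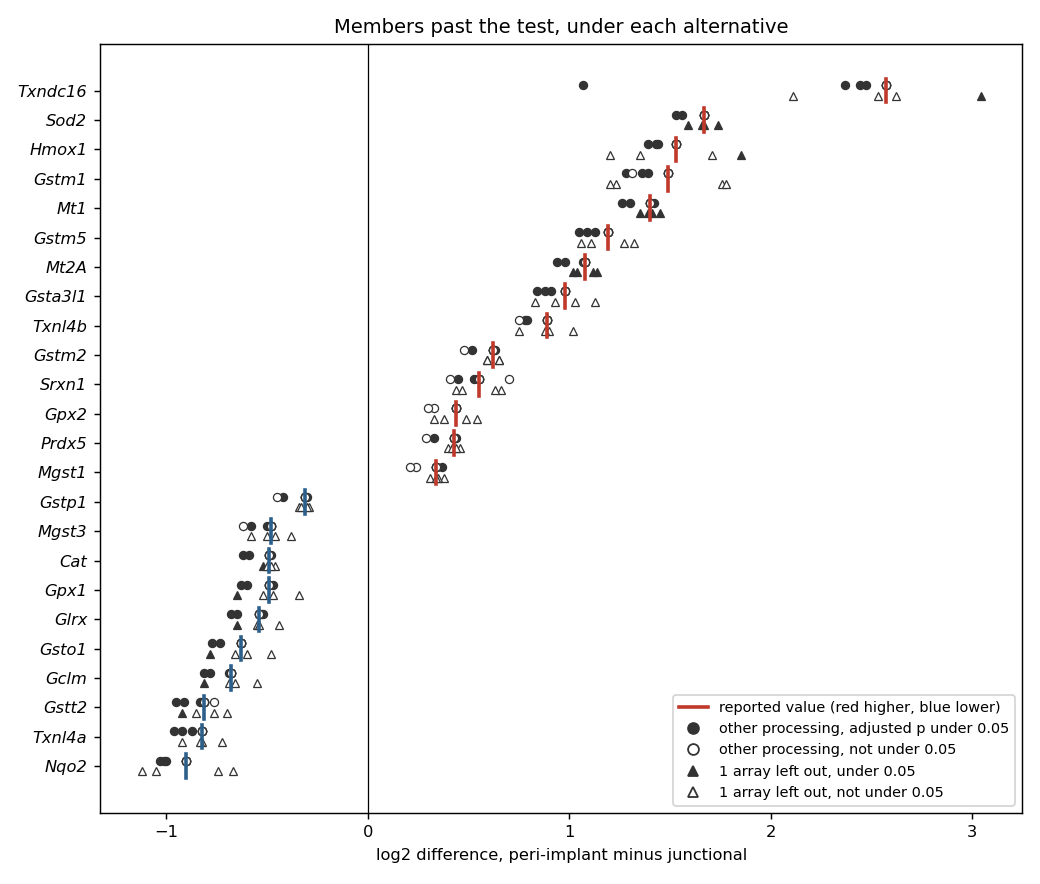
Log2 difference, peri-implant minus junctional, of the 24 members that passed the test, as reported (vertical bars, red higher and blue lower) and under 10 other ways of processing (circles) and with 1 array left out (triangles), filled where the adjusted p stayed under 0.05. All markers of a gene lie on 1 side of 0, and the triangles are filled throughout for Sod2, Mt1 and Mt2A.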

How the data were processed

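Per the labels' protocols, epithelium was cut from frozen sections by laser, and its RNA was purified with an RNeasy Micro Kit, amplified (Ovation V2) and biotin labelled. The authors deposited log2 signals of 31099 probe sets. Software and normalization: not given in the sources used here. With 2% trimmed from either end, linear signals averaged 500.19 per array, and a floor at log2 0 was reached by 378 to 729 probe sets per array. No further normalization was applied.

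Analyses excluded 57 controls. Of the other 31042, 20826 carried 1 symbol in the platform annotation, 436 several and 9780 none. Peri-implant was compared with junctional epithelium over 14217 genes in R 4.3.3 with limma 3.58.1 (lmFit, eBayes with trend and robust prior, two-sided, 2 residual degrees of freedom). The fit was tested on simulated data. Folds were computed after raising values of the dimmer group to the background level where any array lay at or below it, and are then lower bounds. Positions and promoters come from RefSeq (GRCr8), matched by gene identifier for 75 members.

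The members, lists and the choice of prior were made with earlier results of these data known. Named were all members past the test, members 2-fold apart without overlap and above background, the 2 brightest of each role, both regulators and all metallothioneins. Other members were added after their values were seen, to complete their families. From each outside list up to 4 genes were named by size, and any others (Ggt1, Slc31a2, Selenop, Cyba, Xdh, Sat1, Cybb, Nox1, Nox4, Nos2, Aox1, Atox1, Cp, Atp7b, Mtf1 and Slc30a1) after their values were seen. Groups shared replicate numbers, but the deviations of same-numbered arrays correlated across genes with r of only 0.018 and nothing in the labels ties them, so arrays were taken as unpaired.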

Additional observations from a re-analysis of the deposited data

How the results depend on the processing

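With limma's default prior, 0 genes, 0 members and 0 genes of the outside lists passed, in either direction. With 1 array left out, the genes that rose numbered 170 to 231 and those that fell 50 to 210, against 1051 and 759, the members 3 to 5 and 0 to 4, against 14 and 10, and the outside list genes 2 to 6 and 0 to 2, against 20 and 11; these fits have 1 residual degree of freedom. Scaling on hybridization controls, an alternative chosen after seeing the data, gave 525 genes, 8 members and 9 outside list genes higher, and centring on array medians gave 1157 genes lower and 13 outside list genes higher. Averaging probe sets left 7 outside list genes lower. The median over members was -0.04 with arrays centred, -0.08 on hybridization controls and 0.01 to 0.11 with 1 array left out. The other alternatives kept 22 to 24 of the 24 members that passed: 24 without the robust option, with genes above background on 2 arrays and with the replicate block, 23 under quantile normalization, with signals raised to background and over all probe sets, and 22 with arrays centred or probe sets averaged. With the replicate block 16 members rose and 11 fell, over all genes 1410 and 1060, and no member lost its call. The 9 members below background, and Txndc16 and Gstm1 in junctional epithelium, have signals too low for a measured fold.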
